A study of Mus musculus with 2 samples.

Results

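Prohormone processing and granule maturation was read from 10 genes of the regulated secretory pathway, chosen as a functional group by gene symbol, with earlier results of these data known. They were Pcsk1, Pcsk2, Cpe, Pcsk1n, Scg5, Pam, Ero1b, Slc30a8, Ptprn and Ptprn2. They had 16 probes on the array, 2 each for 6 genes and 1 each for 4, among 41174 gene probes and 16789 named genes. All 16 probes were well above background, so all 10 genes were measured, and none was saturated.

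RNA came from the whole pancreas of pups homozygous for the zf allele of the transcription factor Glis3 (Glis3zf/zf, also labelled Glis3KO) and of wild-type pups (Glis3WT), both at postnatal day 3. Each genotype was 1 pool of RNA from 2 pups, and the sources used here give no strain, sex or litter. Both pools were hybridised together on 2 arrays with the dyes exchanged, so the spread below is that between 2 measurements of the same RNA, with no spread between animals. No test between genotypes was possible. The arrays are called here by the dye of the mutant, Cy5 array and Cy3 array, and ratios are mutant over wild type on the log2 scale.

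Peptide hormones are made as longer precursors that are folded in the endoplasmic reticulum and packed into dense-core granules, where they are cut into active peptides while the granule acidifies. Prohormone convertases cut after pairs of basic residues, a carboxypeptidase trims the basic residues left behind, and an amidating enzyme finishes some of the ends. In beta cells the same granules take up zinc, with which insulin is stored. In pancreas most of these genes are expressed chiefly in islet cells and nerves, while most of the RNA comes from acinar cells.

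The promoter windows of 5 of the genes are shown. They are the pair with the lowest ratios by the brighter probe, Pcsk2 and Scg5, and 3 others whose windows held letters marked below in capitals. Ptprn, with such letters in 1 of its 2 windows, is not shown. Windows span 250 bases before to 50 after the annotated start (RefSeq, GRCm38.p6), and lie at chr2:143545883-143546182 (+) for Pcsk2, chr13:75089607-75089906 (+) for Pcsk1, chr2:113829042-113829341 (-) for Scg5, chrX:7919572-7919871 (+) for Pcsk1n and chr13:12565633-12565932 (+) for Ero1b. They are written 5′ to 3′ on the gene's strand. Capitals mark TGACG, the half-site of cAMP response elements, and TGGGGGG, a G-rich core like that bound by Gli-similar factors, on either strand.
Pcsk2: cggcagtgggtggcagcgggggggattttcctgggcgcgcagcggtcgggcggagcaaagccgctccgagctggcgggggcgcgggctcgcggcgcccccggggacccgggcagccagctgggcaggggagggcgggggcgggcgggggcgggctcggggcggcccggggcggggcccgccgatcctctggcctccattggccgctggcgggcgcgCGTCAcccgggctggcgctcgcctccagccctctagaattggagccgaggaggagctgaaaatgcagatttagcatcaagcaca
Pcsk1: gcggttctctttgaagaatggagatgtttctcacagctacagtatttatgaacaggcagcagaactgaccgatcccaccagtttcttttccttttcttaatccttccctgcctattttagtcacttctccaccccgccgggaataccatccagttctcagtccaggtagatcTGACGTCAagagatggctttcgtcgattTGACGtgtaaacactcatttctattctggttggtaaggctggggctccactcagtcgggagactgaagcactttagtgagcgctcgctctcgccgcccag
Scg5: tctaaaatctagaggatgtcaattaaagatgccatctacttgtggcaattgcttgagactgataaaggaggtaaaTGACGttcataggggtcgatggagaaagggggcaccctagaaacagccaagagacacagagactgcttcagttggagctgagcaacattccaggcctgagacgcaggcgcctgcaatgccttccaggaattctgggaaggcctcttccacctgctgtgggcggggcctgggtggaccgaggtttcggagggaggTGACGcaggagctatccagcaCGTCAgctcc
Pcsk1n: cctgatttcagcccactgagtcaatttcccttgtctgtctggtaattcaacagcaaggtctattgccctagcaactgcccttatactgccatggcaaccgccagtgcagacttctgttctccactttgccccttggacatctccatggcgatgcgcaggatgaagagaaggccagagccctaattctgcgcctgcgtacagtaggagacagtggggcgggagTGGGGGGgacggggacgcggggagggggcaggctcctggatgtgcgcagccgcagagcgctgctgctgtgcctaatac
Ero1b: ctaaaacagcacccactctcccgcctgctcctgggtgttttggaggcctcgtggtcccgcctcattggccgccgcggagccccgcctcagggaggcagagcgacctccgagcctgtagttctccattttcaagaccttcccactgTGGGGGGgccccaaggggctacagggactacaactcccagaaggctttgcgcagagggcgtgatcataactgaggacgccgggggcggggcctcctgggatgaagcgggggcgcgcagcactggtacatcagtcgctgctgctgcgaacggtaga
The table of windows held 8 of the 10 genes, and Cpe and Slc30a8 were not among them. These genes had 10 windows, 2 each for Pam and Ptprn, whose windows differ in their start. TGACG lay in 4 of the 10, those of Pcsk2, Pcsk1 and Scg5 and 1 of Ptprn, against 20.8% of 32851 windows of the same length. In Pcsk1 a match on each strand overlapped, with first bases at -78 and -75 from the start site, and a further match began at -50. TGGGGGG lay in 2 of the 10, those of Pcsk1n and Ero1b, against 8.47% of all windows. The Pcsk2 window also held 7 matches to the GC box GGGCGG, 2 of which overlap, and had a GC content of 76.3%, against a median of 52.7% over all windows. A GC box lay in 9 of the 10 windows, against 35.7% of all windows, and 1 Ptprn window had none. The 2 Pam windows largely overlap and hold the same GC boxes, so the 9 windows are not separate promoters. The share over all windows was not matched for GC content, which was 77.3% and 76.3% in the Pam windows. These matches are descriptions of letters, on both strands, and no binding was measured.

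Over the members as a group, signal was lower in the mutant pool for most genes and higher for none by either rule of size used here. Only Pcsk2 passed the stricter rule (1 gene), a 2-fold or larger mean change that was also 1.5-fold or larger, with the same sign, on both arrays. That rule called 0.151% of 16509 detected genes lower and 0.23% higher. By a looser rule, a ratio of the same sign on both arrays and 0.32 or more from 0 on each, 6 of 10 genes were lower in the mutant, Pcsk2, Scg5, Slc30a8, Pcsk1, Cpe and Ero1b, against 1.65% of all genes lower and 1.24% higher. The median ratio of the 10 genes was -0.47 (-0.49 on the Cy5 array and -0.42 on the Cy3 array), against 0.00 over all detected genes. For 9 of the 10 the ratio was below 0 on both arrays, against 30.5% of all genes, and Ptprn2 was the exception. With the scanner software's own ratio Scg5 also passed the stricter rule (2 genes), and with the probes of each gene averaged none of the 10 did, because the Pcsk2 probes differed. In bulk tissue, fewer cells of a type and less RNA per cell cannot be told apart.

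Over single probes, 1 of 16 passed the stricter rule, against 0.0952% of 38864 detected probes lower and 0.142% higher. The looser rule called 8 of 16 lower, against 1.3% of all probes lower and 0.793% higher, and none of the 16 higher. In all, 13 of 16 probes were below 0 on both arrays, against 30.4% of all probes, and the sign differed between arrays for the other 3, a probe each of Pam, Ero1b and Ptprn2. The technical SD of a mean ratio, estimated from how far each array lay from the mean of both, in 10 classes of intensity, was between 0.066 and 0.104 log2. By that measure 11 of 16 probes lay over 2 technical SD from 0, among them the brighter Pam probe at 2.50 with unlike ratios (-0.04 and -0.36). The same share over all probes was not computed, so this count cannot be set against that of other genes. The technical SD covers the noise of the arrays and not the spread of animals.

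**Figure D1:**
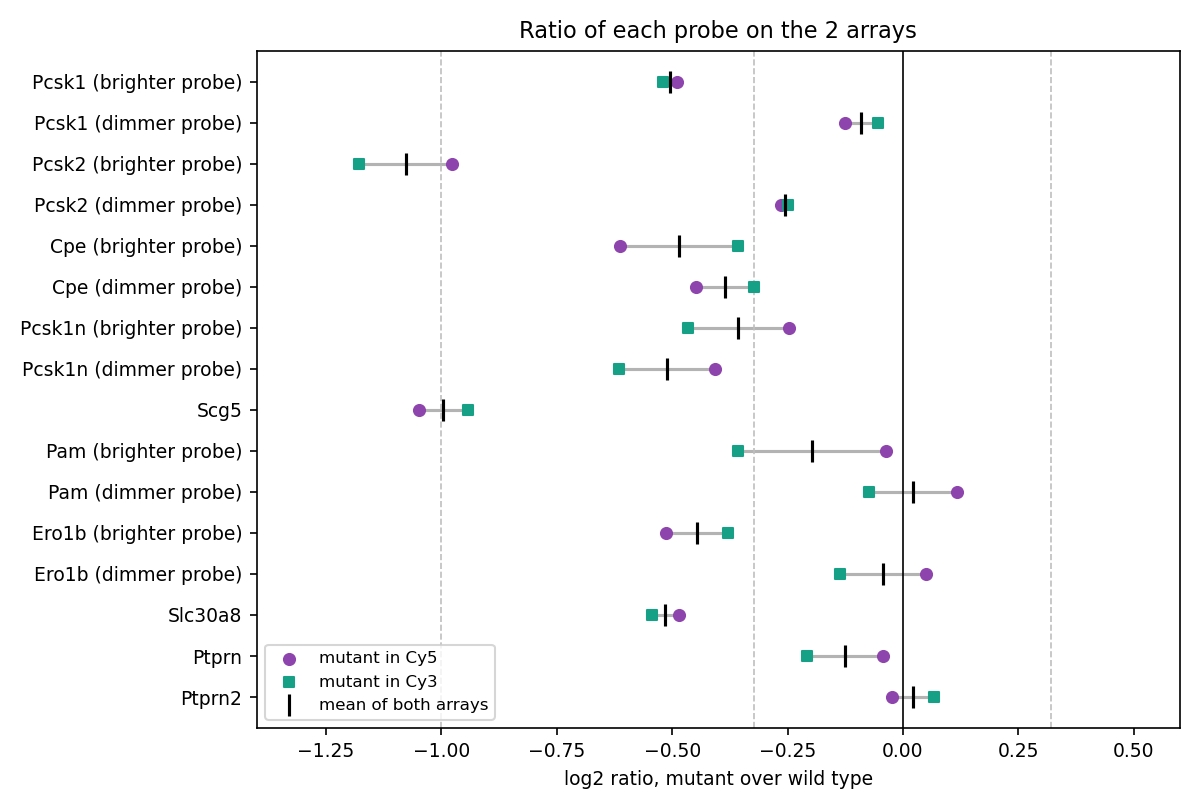
Log2 ratio of mutant over wild type for each of the 16 probes, on the Cy5 array (circles), the Cy3 array (squares) and their mean (bars). Dashed lines mark the 2-fold mean of the stricter rule and, on either side of 0, the 0.32 of the looser one. Scg5 and the brighter Pcsk2 probe lie near the 2-fold line at -0.996 and -1.08, while Ptprn2 and the dimmer probes of Pam, Ero1b and Pcsk1 lie near 0.

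Pcsk2 encodes the convertase that, with Pcsk1, cuts proinsulin, and that makes glucagon from its precursor in alpha cells. Its brighter probe (chr2:143270850-143270909, plus strand, in the files' own coordinates, of a build not given in the sources used here) gave normalised intensities of 3706 in mutant and 7296 in wild-type RNA on the Cy5 array, and 3531 in mutant and 7988 in wild-type RNA on the Cy3 array. The mutant was lower on both arrays and the 4 values did not overlap between genotypes. Overlap was also absent for probes that passed neither rule, among them the dimmer Pcsk2 probe and the brighter Pam probe. The share of all probes without overlap was not computed, so its absence, here and below, does not set a gene apart. The ratios were -0.98 and -1.18, with a mean of -1.08 or 2.11-fold lower, which was rank 24 from the lowest of 16509 genes.

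A second Pcsk2 probe, 1896 bases further 3′ (chr2:143272746-143272805), differed far less between the pools. Its intensities were 784 in mutant and 942 in wild-type RNA on the Cy5 array, and 747 in mutant and 887 in wild-type RNA on the Cy3 array. The ratios of -0.26 and -0.25 were close to each other and lower in the mutant, with a mean of -0.26 or 3.30 technical SD from 0. The brighter minus the dimmer probe was -0.82 log2, which is 6.33 times the technical SD of such a difference, so the size of the Pcsk2 change depended on the probe, and the cause was not tested.

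Scg5 encodes 7B2, the granule chaperone that brings the Pcsk2 enzyme to its active form and also inhibits it through a peptide of its own. Its single probe (chr2:113399693-113399752, minus strand) had intensities of 401 in mutant and 829 in wild-type RNA on the Cy5 array, and 438 in mutant and 842 in wild-type RNA on the Cy3 array. Both wild-type values were above both mutant values. The ratios of -1.05 and -0.94 averaged -0.996, or 1.99-fold lower, just short of the 2-fold of the stricter rule. It had rank 26 from the lowest of 16509 genes, close to the rank of 24 of Pcsk2 by its brighter probe. The other Pcsk2 probe gave only -0.26, so the closeness of the convertase and its chaperone depended on the probe.

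Pcsk1 encodes the other islet convertase, which acts early on proinsulin. Its brighter probe (chr13:71188247-71188306, plus strand) had intensities of 456 in mutant and 640.5 in wild-type RNA on the Cy5 array, and 440.1 in mutant and 631 in wild-type RNA on the Cy3 array. The ratios of -0.49 and -0.52 averaged -0.50, or 1.42-fold lower, with no overlap between genotypes. The dimmer probe, 32776 bases further 5′ (chr13:71155471-71162127), read near the low end of the detected signals, at 83.8 in mutant and 91.4 in wild-type RNA on the Cy5 array, and at 98.3 in mutant and 102 in wild-type RNA on the Cy3 array. There the genotypes overlapped across arrays and the ratios were -0.13 and -0.05. The brighter minus the dimmer probe was -0.41 log2, or 4.12 times the technical SD of the difference.

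Pcsk1n encodes proSAAS, a granule protein that inhibits the Pcsk1 enzyme. Its brighter probe (chrX:6162082-6162141, plus strand) had intensities of 6141 in mutant and 7285 in wild-type RNA on the Cy5 array, and 5911 in mutant and 8169 in wild-type RNA on the Cy3 array. The genotypes did not overlap, but the ratios of -0.25 and -0.47 lay on either side of the looser rule's limit, so the gene missed the looser rule with a mean of -0.36. The dimmer probe (chrX:6161425-6161877) passed it, with 1059.7 in mutant and 1405 in wild-type RNA on the Cy5 array, 977 in mutant and 1497 in wild-type RNA on the Cy3 array, and ratios of -0.41 and -0.62. The brighter minus the dimmer probe was 0.16 log2, or 1.17 times the technical SD of the difference.

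By the brighter probes the difference was larger for Pcsk2 than for Pcsk1 on each array. That order depended on the probe. The dimmer Pcsk2 probe (-0.26 and -0.25) differed less between the pools than the brighter Pcsk1 probe (-0.49 and -0.52). The Pcsk2 chaperone and the Pcsk1 inhibitor were both below 0 on both arrays, as were their enzymes.

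Cpe encodes carboxypeptidase E, which removes the basic residues that the convertases leave. Its brighter probe (chr8:63662894-63662953, minus strand) had intensities of 2781 in mutant and 4254 in wild-type RNA on the Cy5 array, and 2588 in mutant and 3315 in wild-type RNA on the Cy3 array. The ratios of -0.61 and -0.36 averaged -0.49, or 1.40-fold lower. The other probe (chr8:63663089-63664823, spanning 1735 bases in the files) gave 2581 in mutant and 3524 in wild-type RNA on the Cy5 array, and 2703 in mutant and 3379 in wild-type RNA on the Cy3 array, with ratios of -0.45 and -0.32. Of the 6 genes with 2 probes, Cpe was the only one where both passed the looser rule, and its brighter minus its other probe was -0.10 log2, or 0.677 times the technical SD of the difference.

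Pam encodes the enzyme that amidates the C-terminus of peptides such as amylin and pancreatic polypeptide. Its brighter probe (chr1:97601922-97601981, minus strand) had intensities of 467 in mutant and 479 in wild-type RNA on the Cy5 array, and 388 in mutant and 497 in wild-type RNA on the Cy3 array. These values did not overlap between genotypes either. The ratios of -0.04 and -0.36 differed more between the arrays than those of any other of the 16 probes. The dimmer probe (chr1:97675778-97676097) read 184 in mutant and 169 in wild-type RNA on the Cy5 array, and 191 in mutant and 201 in wild-type RNA on the Cy3 array. Its ratios of 0.12 and -0.07 differed in sign, and neither Pam probe passed a rule.

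**Figure D2:**
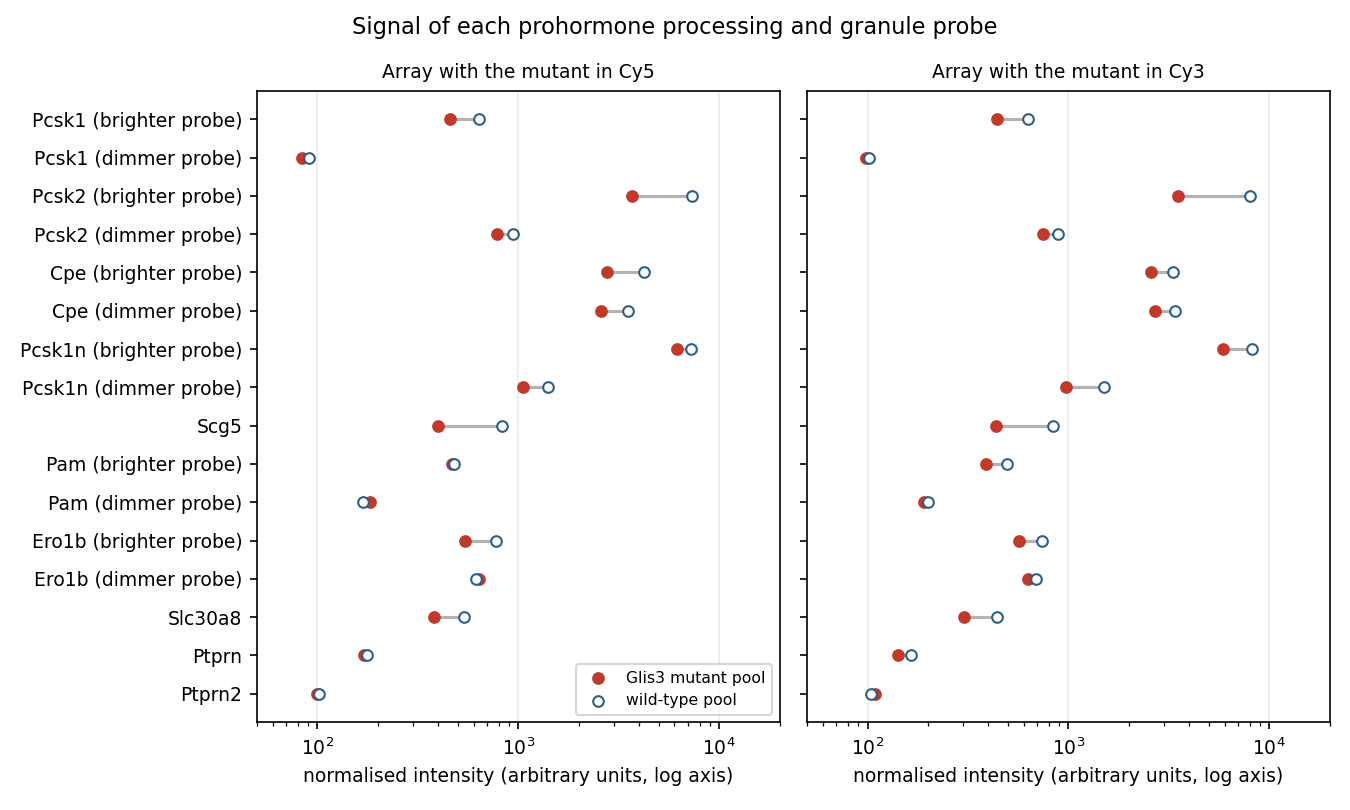
Normalised intensity (arbitrary units, log axis) of each probe in the mutant pool (filled) and the wild-type pool (open), with the Cy5 array at left and the Cy3 array at right. The brighter Pcsk2 probe shows 3706 and 3531 in the mutant, against 7296 and 7988 in the wild type, and the Ptprn2 points lie together.

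Ero1b encodes an oxidase of the endoplasmic reticulum that is rich in beta cells and helps proinsulin form its disulfide bonds. Its brighter probe (plus strand of an unplaced sequence, 34591997 to 34592056 in the files) had intensities of 545 in mutant and 778 in wild-type RNA on the Cy5 array, and 565 in mutant and 735 in wild-type RNA on the Cy3 array. The ratios of -0.51 and -0.38 averaged -0.45, or 1.36-fold lower. A second probe, 2266 bases further 5′ (34589731 to 34589790), had almost the same mean brightness and read 636 in mutant and 614 in wild-type RNA on the Cy5 array, and 626 in mutant and 688 in wild-type RNA on the Cy3 array. Its ratios were 0.05 and -0.14, with a mean of -0.04. The call for Ero1b therefore rested on which probe stood for the gene, and the brighter minus the dimmer was -0.40 log2, or 3.75 times the technical SD of the difference.

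Slc30a8 encodes the zinc transporter that loads insulin granules. Its single probe (chr15:52333847-52335372, plus strand, spanning 1526 bases in the files) had intensities of 382 in mutant and 535 in wild-type RNA on the Cy5 array, and 302 in mutant and 440.3 in wild-type RNA on the Cy3 array. The ratios of -0.49 and -0.54 averaged -0.51, or 1.43-fold lower. The mutant was lower than the wild type on each array and the 4 values did not overlap.

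Ptprn and Ptprn2 encode receptor-type phosphatase family proteins of the granule membrane that are known as autoantigens of type 1 diabetes. The Ptprn probe (chr1:75539373-75539432, minus strand) had intensities of 171 in mutant and 176 in wild-type RNA on the Cy5 array, and 142 in mutant and 164 in wild-type RNA on the Cy3 array, with ratios of -0.04 and -0.21. The Ptprn2 probe (chr12:113011459-113012275, plus strand) had 100.2 in mutant and 102 in wild-type RNA on the Cy5 array, and 109 in mutant and 104 in wild-type RNA on the Cy3 array, with ratios of -0.02 and 0.07. Neither passed a rule, the values overlapped between genotypes, and both probes were dim, with Ptprn2 in the dimmest of the 10 classes of intensity.

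**Figure D3:**
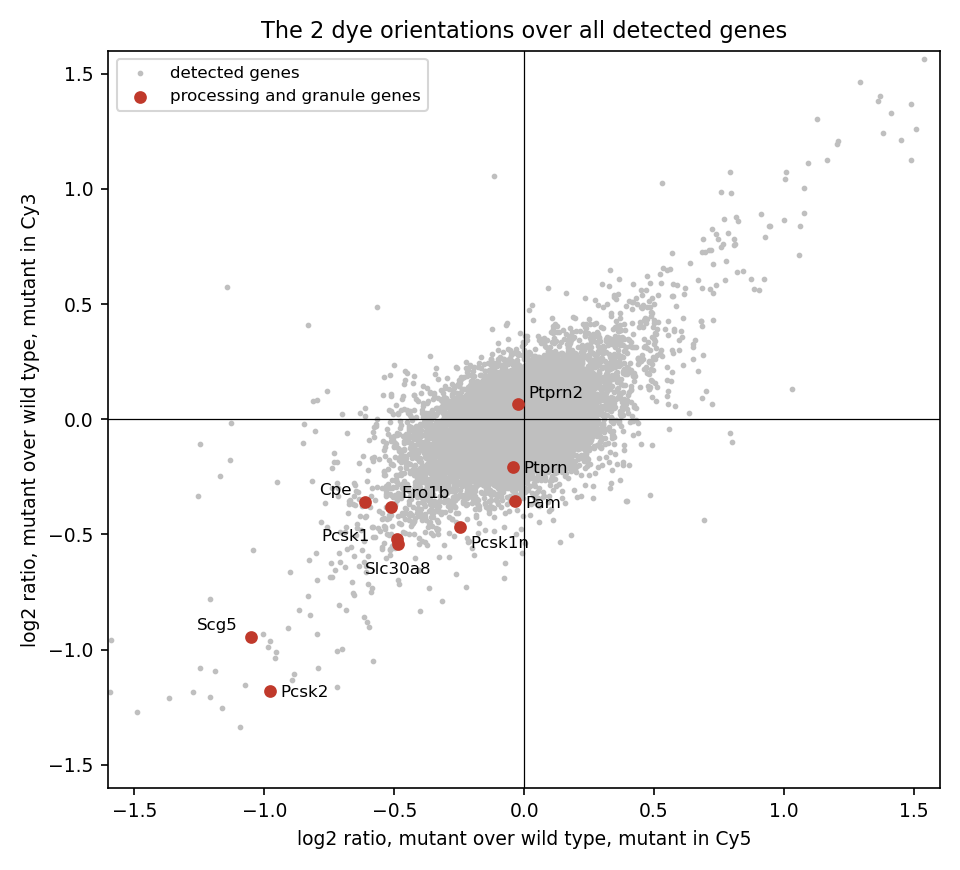
Log2 ratio of mutant over wild type on the Cy5 array (horizontal) against that on the Cy3 array (vertical) for each detected gene, with the 10 processing and granule genes in red. Axes end at 1.6 in either direction, and 34 genes lie outside them. Pcsk2 and Scg5 lie apart at the lower left and Ptprn2 lies in the middle of the cloud.

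Genes with like tasks, most of them active in many cell types, were set beside the 10. Over 8 lists holding 107 names, 96 genes were measured. None of them passed the stricter rule, 3 passed the looser rule higher and 1 lower, and the median ratio was -0.01. The other proprotein convertases had a median of -0.01 (5 of 7 measured), with no call, and Furin, which cuts precursors in most cells, stood at -0.12. The other carboxypeptidases of the same family had a median of 0.05 (6 of 7 measured), with 1 gene higher by the looser rule, Cpn1, a plasma carboxypeptidase (0.50 and 0.34, mean 0.42), and Cpxm1 next at 0.19. The other peptide-processing enzymes had a median of 0.00 (10 of 11 measured), with 2 higher, the lysosomal cathepsins Ctsl (0.58 and 0.49, mean 0.54) and Ctsb (0.36 and 0.54, mean 0.45, and 0.18 on its other probe).

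Among genes of oxidative folding, 13 of 14 were measured, the median was -0.08 and none was called. The extremes were Dnajc3 (-0.60 and -0.09, mean -0.34), a chaperone partner, and Gpx7 (0.34), a peroxidase. Zinc transporters and metallothioneins, 13 of 15 measured, had a median of -0.06 and no call, with Mt1 (-0.27) and Mt2 (-0.25) the furthest from 0. Receptor phosphatases outside the granule pair, 15 of 17 measured, had a median of 0.04 and no call, with extremes at Ptprb (-0.35) and Ptprf (0.30). Genes of granule budding and traffic, 21 of 22 measured, had a median of -0.03 and 1 call by the looser rule, Ica1, an islet autoantigen that binds membranes (-0.34 and -0.48, mean -0.41, and -0.17 to -0.30 on its other probes), with the sorting receptor Sort1 next (-0.38, and -0.08 to 0.05 on its other probes). Proton pump and chloride channel genes, 13 measured, had a median of -0.03 and no call. Atp6ap2 (mean -0.22) and Atp6v1h (-0.19) were the furthest from 0, but the sign of Atp6ap2 differed between the arrays (-0.54 and 0.11). The counts are descriptions of 1 pair of pools, and the difference between these lists and the 10 genes was not tested.

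**Figure D4:**
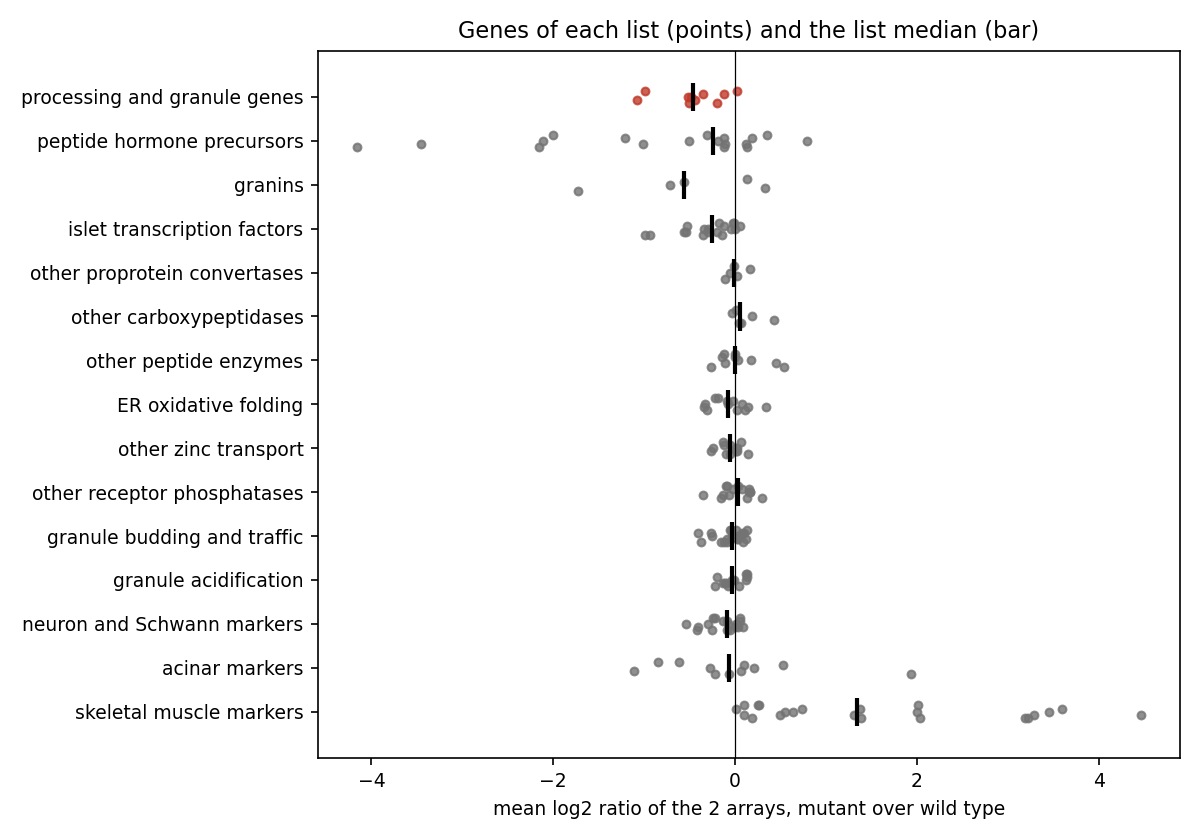
Mean log2 ratio of mutant over wild type for each measured gene (points) and the median (bars) of the 10 processing and granule genes (red) and of other lists (grey). The 10 genes have a median of -0.47, the 8 lists of like tasks lie near 0, and the muscle markers lie above 0 with a median of 1.34. Ins1, Ins2 and the acinar gene Zg16, plotted at their measured values, had saturated spots.

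Some substrates and cargo proteins of these enzymes were lower as well, several by more than the enzymes. Of 18 peptide hormone precursors, all measured, 7 were lower by the stricter rule and none higher, and 8 were lower and 1 higher by the looser rule. Ins1 had ratios of -3.87 and -4.44 with 1 wild-type spot saturated, and Ins2 was at least 11-fold lower, its wild-type spots saturated on both arrays. The others were the precursors of pancreatic polypeptide (Ppy, -2.15), ghrelin (Ghrl, -2.12), somatostatin (Sst, -1.84 and -2.16), glucagon (Gcg, -1.21) and peptide YY (Pyy, -1.01, and -0.72 on its other probe), and Iapp, the amylin precursor, was lower only by the looser rule at -0.51. The gene higher by the looser rule was Cck (0.81 and 0.78), the cholecystokinin precursor, and Penk, the enkephalin precursor, was above 0 on both arrays without passing a rule (0.44 and 0.26, and a mean of 0.43 on its other probe). Chgb, Gnas and Penk are named after their values were seen. The median of the 18 was -0.25. A list of Gnas and the granins, the proteins that condense granule cargo, had 5 of 6 genes measured, with a median of -0.57. Chga was lower by the stricter rule (-1.74 and -1.71), and Scg2 (-0.71) and Scg3 (-0.57) by the looser one. Chgb, in contrast, was above 0 on both arrays (0.36 and 0.30) and Gnas likewise (0.16 and 0.09), neither past a rule. Which product of Gnas its probe reads was not examined. By the brighter probe of each gene, the Pcsk2 and Scg5 differences were smaller on the log2 scale than those of several cargo genes. These were Ins1, Ins2, Ppy, Ghrl, Sst, Gcg and Chga. The other probe of Pcsk2 gave only -0.26.

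Islet transcription factors, 18 of 18 measured, had none past the stricter rule and 6 lower by the looser one, among them Isl1 (-0.99), Hhex (-0.57, and -0.03 on its other probe), Nkx6-1 (-0.54), Neurod1 (-0.53) and Rfx6 (-0.35), with a median of -0.25. The Glis3 probe gave ratios of -0.02 and 0.01, and the labels do not say whether it lies in the altered part of the gene, so it checks nothing on the genotypes. Neurons also make processing enzymes. Of 19 neuron and Schwann cell markers 18 were measured, with a median of -0.09. By the looser rule 3 were lower, Elavl4 (-0.54, and -0.15 on its other probe), S100b (-0.42) and Stmn2 (-0.41), the first of these also known in islet cells. Their summed level was 5438 to 5506 in the mutant and 5967 to 6050.2 in the wild type over the 2 arrays, and its part in the ratios of the 10 genes was not tested.

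The pools also differed in other tissue. Skeletal muscle markers, 22 of 26 measured and Pvalb not above background, had a median of 1.34, and 12 passed the stricter rule higher and none lower, and 16 were higher by the looser rule. Their summed level was 29267 to 29299 in the mutant and 6426 to 6594 in the wild type, and the extremes were Myl1 (4.46) and Tnnc2 (3.60), both of fast fibres. The other 10 past the stricter rule were Acta1, Mylpf, Myh4, Myh7, Myh8, Tnni2, Tnnt1, Tnnt3, Ckm and Actn2, with Myh4 and Myh8 near 0 on a dimmer probe (0.11 and 0.06). Acinar markers showed that the tissue was pancreas. Of 25 listed, 23 were named on the array, and 12 of these were saturated in both pools. The 10 with no saturated spot had a median of -0.14 and a summed level of 94542 to 96104 in the mutant and 102456 to 105385 in the wild type, with Gp2 higher (1.93) and Ctrl lower (-1.11) by the stricter rule, and 2 higher and 3 lower by the looser one. The part of these differences in tissue content in the ratios of the 10 genes was not tested.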

How the data were processed

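Per the labels' protocols, 500 ng of total RNA from each pool was amplified and labelled, and 750 ng of each dye was hybridised for 17 h to Agilent whole mouse genome arrays. The deposited scanner files hold mean and background intensity values per spot on a linear scale, not normalised, plus a log10 ratio (Cy5 to Cy3) that the authors' scanner software made from its own processed intensities, per the file headers. The deposited series value table holds log2 ratios of mutant over wild type, a direction and scale settled by comparison with the scanner files, where they were equal within 0.002 for 99.98% of probes or more. Its median was 0 on each array. Per the submitters' processing notes the software was Feature Extraction 7.5, but the headers name modules of version 8.5.1.1. The probe coordinates are of a build not given in the sources used here. Whole-series spans were a median raw signal of 207 to 265.03 per channel, 94.0% to 96.8% of spots well above background, and 26 to 48 saturated spots per channel. The number of arrays limits the precision.

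Intensities were background-corrected with normexp (offset 50, which shrinks the folds of dim probes) and loess-normalised within each array in limma 3.58.1 with R 4.3.3 (data.table package 1.17.8), with control spots at weight 0 and outlier-flagged spots left out (15 and 53). Channel levels were set on 1 scale by Aquantile normalisation. Ratios were set as mutant over wild type, then averaged over the dye swap, so that a dye effect cancels. Probes were named by RefSeq accession, then by symbol (23300 of 41174). The brightest unsaturated probe well above background stood for a gene. A probe counted as measured if it was well above background for at least 1 genotype on both arrays. The technical SD came from genes not past the stricter rule. A gene saturated on both arrays of a genotype has a bound only. Other steps used Python 3.11.15, numpy 2.4.6, pandas 2.3.3 and matplotlib 3.10.9. The within-array normalisation and the stricter rule were tested on a simulated dye swap with changes larger than 2-fold. The looser rule, the choice of probes, the channel levels and the technical SD were not part of that simulation.

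The 10 genes and the gene lists were chosen with earlier results of these data known. All probes of the 10 genes are reported, and from each other list the counts, the median, each gene past the stricter rule and the 2 furthest from 0, except that some genes are not reported here. No gene was ranked by likeness of pattern, since 2 arrays of 1 pair of pools give none. Alternatives were other background corrections, median centring, the software's ratio, the deposited table, each array alone, other probe filters, and medians or means over probes. Slide and dye orientation coincide, so slide could not be fitted as a block.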

Additional observations from a re-analysis of the deposited data

How the results depend on the processing

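The count of genes past the stricter rule, 1 (Pcsk2), was 2 (Pcsk2 and Scg5) with an offset of 0, median centring, the software's log ratio or the deposited series table. It was 0 with the median or the mean over probes of a gene, since the Pcsk2 probes disagree. With each array alone it was 1, Scg5 on the Cy5 array and Pcsk2 on the Cy3 array. Over probes the count of 1 was likewise 2 under the same 4 alternatives. The looser rule called 6 genes under every alternative except the median or mean over probes (5, with Pcsk1n called and Pcsk1 and Ero1b not) and the Cy3 array alone (8). The median ratio of the 10 genes was -0.52 with median centring, -0.37 with the median or mean over probes, and -0.49 and -0.42 on single arrays. Of 160 alternative values of the 16 probes, 144 stayed within the spread between arrays and 16 moved further. The largest of those 16 moves was 0.12 log2 from the main value. The 144 include values that had to stay within it, since each array alone defines that spread and the detection filters leave a probe's value unchanged. The deposited table also nearly repeats the software's ratio. No probe past the looser rule changed sign. Over all genes, the looser rule called 204 higher and 272 lower, against 150 higher and 389 lower with median centring and 299 higher and 437 lower with the software's ratio. On single arrays it called 450 higher and 814 lower (Cy5 array) and 319 higher and 430 lower (Cy3 array). With the median or mean over probes it called 188 higher and 222 lower. The stricter rule called 38 higher and 25 lower, against 50 and 44 with the software's ratio. The detection filters and outlier spots changed none of the counts for the 10 genes. No paired analysis was possible because each genotype is 1 pool on a technical dye swap.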

Other observations

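Some probes fall outside the rule that chose the 10 genes and were picked after their values were seen, for their place or for a known tie of their product. Resp18, a granule protein of endocrine cells whose probe lies next to that of Ptprn in the files (chr1:75564727-75564907), had ratios of -0.61 and -0.64, past the looser rule, whereas Ptprn had -0.04 and -0.21. An unnamed clone beside Pcsk1n (chrX:6162673-6162732) had -0.11 and -0.38, and one beside Pam (chr1:97599397-97599456) had 0.10 and -0.01. Rassf9, whose product binds the tail of the amidating enzyme, had -0.21 and -0.19.

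Other tissue markers were mixed. Duct markers (15 measured) had a median of 0.09, with Onecut1 (0.89) and Tff2 (0.50) higher by the looser rule, and immune markers (11 measured) had a median of 0.30, with Lyz2 (0.86, and 0.48 on its other probe) and Cd52 (0.64) higher. Mesenchyme markers (11 measured) had a median of 0.16, with Pdgfra (0.45, and 0.04 on its other probe) higher and Col1a2 (0.34) next. Endothelial markers (9 of 10 measured, Esam not above background) had a median of -0.30, with 3 lower, Flt1 (-0.55), Kdr (-0.35) and Cdh5 (-0.35, and 0.07 on its other probe), while Egfl7 (-0.42) missed the rule on 1 array. Reference genes (14 measured) had a median of 0.01, with B2m higher (0.58) and Tfrc lower (-0.58) by the looser rule.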
